A study of Homo sapiens with 18 samples.

Results

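The comparison of an empty plasmid was examined in triple-negative breast cancer cells without JAG1, using 6 of the 18 libraries of the series. The 3 Jag1KO + ctrl libraries, from knockout cells that carry an empty vector, were compared with the 3 Jag1KO libraries, from the knockout cells as they are. A gene was taken in when it was above 1 CPM in at least 3 of these 6 libraries, which left 13004 of the 21411 genes in the table. The question of the comparison is how the transcriptome differs after transfection of a plasmid without insert and the drug selection that follows, while JAG1 stays knocked out.

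The source of the mRNA was MDA-MB-231, an established mesenchymal-like breast cancer line, grown as spheroids in Matrigel for 7 days from 50000 seeded cells, in 6 conditions of 3 replicates. Jag1KO is a mixture, in equal parts, of 15 single-cell clones made with Cas9 and a guide RNA against JAG1 exon 2. Jag1KO + ctrl is this mixture after transfection with an empty pcDNA3.1 plasmid, and was grown under selection with G418. Both groups thus share the JAG1 knockout, the clones of origin, the matrix and the 7 days as spheroids. Plasmid, transfection, growth under G418, and outgrowth and added culture of the transfected cells differ together between the groups and cannot be told apart. Whether G418 was also in the medium of the spheroids is not stated in the paper. The paper describes Jag1KO + ctrl as a cell line and mentions no repeat of its transfection. The 3 libraries of a group are thus taken as cultures of the same line. No statistic here measures the spread between transfections or selections. Parental cells (Jag1WT) and parental cells with a nontargeting siRNA (siCtrl) are a second pair of groups with no planned change of JAG1, and are used here as a background.

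JAG1 encodes Jagged1, a membrane ligand that binds Notch receptors on neighboring cells. Binding lets proteases release the intracellular part of the receptor, which enters the nucleus and activates genes such as HES1. An empty vector brings no coding insert for the gene under study, but pcDNA3.1 carries a neomycin resistance gene, and G418 is an aminoglycoside that blocks protein synthesis in cells without it. Cells of a spheroid also adjust programs that do not depend on Notch. HIF1 raises glycolytic genes when oxygen is short, SREBP2 raises cholesterol synthesis genes when sterol is low, and ATF4 raises amino acid synthesis and transfer RNA charging genes when amino acids are short or the endoplasmic reticulum is stressed.

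Total counts on genes were between 10330581 and 14754231 in the Jag1KO libraries and between 15655211 and 16979545 in Jag1KO + ctrl. The line was recognizable in all 6 libraries. VIM, an intermediate filament of mesenchymal cells, was between 2184 and 4946 CPM, and CD44 was between 396 and 520 CPM, whereas ESR1, the estrogen receptor, had no read in any of them. The markers of other cell types were low. Only 2 of 13 leukocyte markers had a mean above 1 CPM, the summed leukocyte markers were 4.24 to 6.78 CPM in Jag1KO and 6.20 to 8.87 CPM in Jag1KO + ctrl, and PTPRC, which defines leukocytes, had 5 reads in all. The summed fibroblast markers were 10.4 to 15.1 CPM in Jag1KO and 13.5 to 15.4 CPM in Jag1KO + ctrl, with 3 of 12 above 1 CPM and 4 reads of DCN in all. Of 10 endothelial markers 3 were above 1 CPM, mostly ROBO4, and the sum was 119 to 236 CPM in Jag1KO and 203 to 231 CPM in Jag1KO + ctrl. Of the luminal markers 11 of 15 were above 1 CPM, and their sum was higher in every Jag1KO + ctrl library (1049 to 1097 CPM) than in any Jag1KO library (813 to 895 CPM).

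In each group 1 library stood apart from the other two. The mean log2(CPM + 1) of 97 genes of S and G2/M phase, a measure of proliferation here called the cell cycle level, was 4.11, 5.55 and 5.67 in Jag1KO replicates 1 to 3. It was 5.72, 6.09 and 4.41 in Jag1KO + ctrl replicates 1 to 3. Jag1KO replicate 1 and Jag1KO + ctrl replicate 3 were thus lowest in their groups, by more than 1 log2 unit, and in a bulk sample fewer cycling cells and less cell cycle RNA per cell cannot be told apart. Across genes, Jag1KO replicate 1 correlated best with Jag1KO + ctrl replicate 3 (Pearson's r of log2(CPM + 1) 0.988), above its own group (0.964 and 0.966). Jag1KO + ctrl replicate 3 correlated with its own group at 0.952 and 0.965, and with Jag1KO replicates 2 and 3 at 0.979 and 0.980. The labels give no date or other note on these libraries, and an exchange of the 2 cannot be told apart from a difference between cultures by the labels alone. In the mean log2(CPM + 1) of cancer-testis antigens each of them lay with its labelled group, with 4.49 in Jag1KO replicate 1 (4.65 and 4.68 in the other Jag1KO libraries) and 4.93 in Jag1KO + ctrl replicate 3 (4.85 and 4.93 in the other two). This list was chosen with earlier results of these data known. Of its 15 tested genes, 9 separated upward and 3 downward by these same labels. Its level therefore cannot decide on an exchange, which was not tested. A low cell cycle level is not unusual for the series. Jag1WT had 4.14, 4.91 and 4.10 and siCtrl 4.18, 5.10 and 4.48. Knockout cells with a JAG1 plasmid (Jag1KO + rescue) had 4.18, 5.02 and 4.23. Parental cells with siRNAs against JAG1 (siJag1) had 4.32, 6.07 and 4.41. In each of these groups replicates 1 and 3 were below replicate 2. By replicate number, Jag1KO replicate 3 and Jag1KO + ctrl replicate 1 are thus the libraries whose level departs from the other groups. Results are given over all 6 libraries first, and then without Jag1KO replicate 1 and Jag1KO + ctrl replicate 3. This setting was chosen after the data had been seen and leaves 2 libraries against 2.

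**Figure D1:**
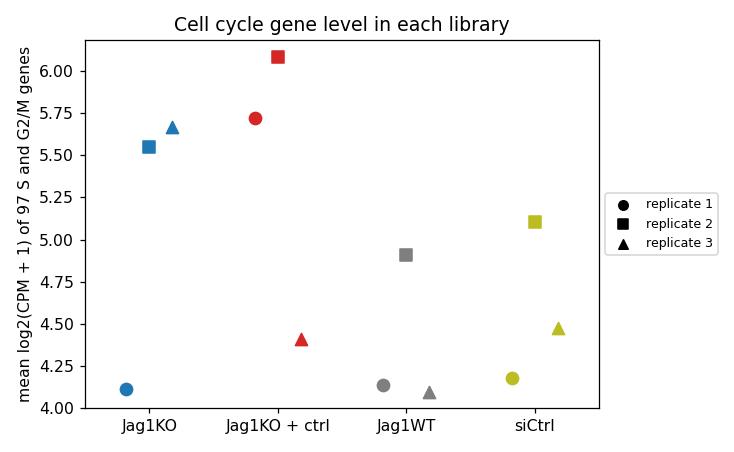
Cell cycle level, the mean log2(CPM + 1) of 97 S and G2/M genes, on the vertical axis, for each library of 4 groups, 1 point per library with the replicate number as its shape. Jag1KO replicate 1 (4.11) and Jag1KO + ctrl replicate 3 (4.41) lie below the other libraries of their groups (5.55 to 6.09) and among the Jag1WT and siCtrl libraries.

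JAG1 itself, the gene of the knockout (chromosome 20, 10637684 to 10673999 in GRCh38.p14), was measured first. Its RNA was 116, 205 and 149 CPM in Jag1KO replicates 1 to 3, and 110, 134 and 147 CPM in the Jag1KO + ctrl replicates. The groups overlap, and the log2 fold change of Jag1KO + ctrl over Jag1KO was -0.28 ± 0.22 (SE, edgeR FDR = 0.78). The two-sided exact permutation test of the CPM gave p = 0.4, where 3 libraries against 3 cannot go below 0.1. Jag1WT had 513 ± 76.7 CPM (SD, n = 3), so that Jag1KO + ctrl had 25.4% of the parental level. The counts are per gene and do not show the edit in exon 2. Without Jag1KO replicate 1 and Jag1KO + ctrl replicate 3 the difference was -0.54 ± 0.16 with an FDR of 0.0401, under the fold threshold of 1.5.

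Among the other ligands and the receptors of the pathway, none was called. NOTCH2, the receptor with the highest CPM here, was 415, 415 and 401 CPM in Jag1KO and 334, 336 and 414 CPM in Jag1KO + ctrl. NOTCH1 was 82.1, 46.4 and 50.2 CPM in Jag1KO and 37.7, 37.5 and 64.3 CPM in Jag1KO + ctrl. For both receptors, the third Jag1KO + ctrl library lies within the Jag1KO range and the other two below it. NOTCH4, at 1.17, 1.16 and 1.72 CPM against 2.16, 2.46 and 1.81 CPM, did not overlap between the groups, with a log2 difference of 0.66 ± 0.31 (edgeR FDR = 0.76). JAG2 was between 1.02 and 2.35 CPM and DLL4 between 0.287 and 1.44 CPM over the 6 libraries. DLL1 and NOTCH3 were below the filter, and DLL3 had no read. HES1, the best known target, was 3.72, 0.927 and 1.05 CPM in Jag1KO and 0.659, 0.240 and 1.74 CPM in Jag1KO + ctrl, which overlap, against 15.6 ± 5.88 CPM in Jag1WT (SD, n = 3). HES1 was picked after its values were seen. ADAM10, the protease that makes the first of the activating cuts in the receptor, was 91.5, 81.9 and 88.1 CPM in Jag1KO and 116, 111 and 97.1 CPM in Jag1KO + ctrl, without overlap. Its log2 difference was 0.29 ± 0.13 (edgeR FDR = 0.76). Of the 23 tested Notch target and pathway genes, 0 were called by edgeR, and the median log2 fold change was -0.06. At an unadjusted p below 0.05, 2 were higher and 0 lower, against 3.75% and 2.05% of all genes.

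Over all 6 libraries, edgeR called 0 of the 13004 genes (0%) at an FDR below 0.05 and a fold change above 1.5, and the smallest FDR was 0.76. At an unadjusted p below 0.05 there were 487 genes higher in Jag1KO + ctrl (3.75%) and 267 lower (2.05%). The 3 Jag1KO + ctrl values lay wholly above the 3 Jag1KO values for 786 genes (6.04%) and wholly below for 525 (4.04%). The median log2 fold change of all genes was -0.01. With other tools, limma with a trend called 0 genes, DESeq2 called 12 higher and 1 lower, and limma voom with a quality weight for each library called 566 higher and 563 lower. Those weights were 0.3003 for Jag1KO replicate 1 and 0.242 for Jag1KO + ctrl replicate 3, and between 1.26 and 2.86 for the other libraries. Without Jag1KO + ctrl replicate 3 alone, edgeR called 131 genes higher and 206 lower. Leaving out any other single library gave 0 calls. Without both libraries of low cell cycle level, edgeR called 861 genes higher (6.62%) and 747 lower (5.74%) of the 13004.

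**Figure D2:**
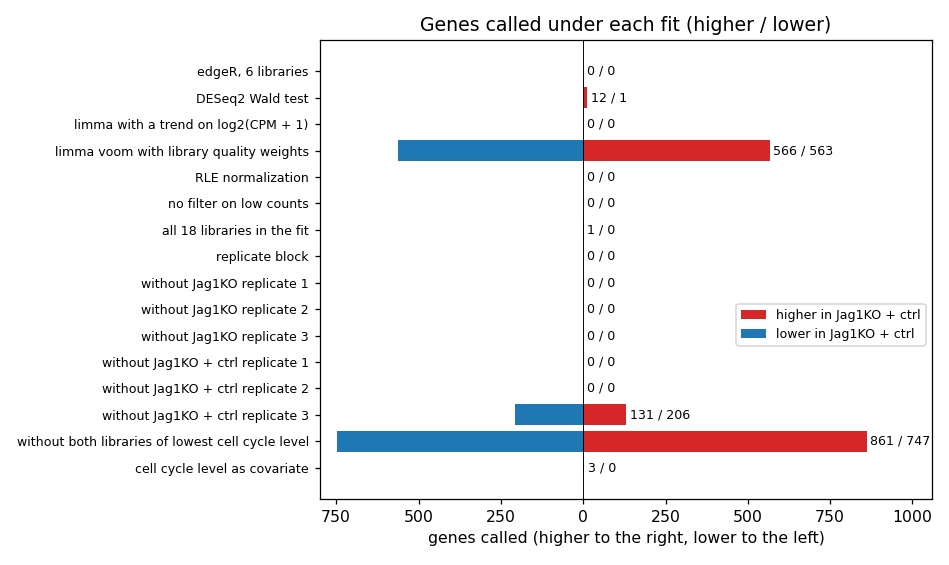
Number of genes called at an FDR below 0.05 and a fold change above 1.5 under each fit, with genes higher in Jag1KO + ctrl to the right of 0 and genes lower to the left. Calls are many where Jag1KO + ctrl replicate 3 is left out (131 and 206), where both libraries of lowest cell cycle level are left out (861 and 747) and where libraries are weighted (566 and 563).

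The genes of smallest unadjusted p among those whose groups do not overlap, at a mean of at least 10 CPM, were the nearest to a call, and all had an edgeR FDR of 0.76. MAGEC1, a cancer-testis antigen (chromosome X, 141903894 to 141909374 in GRCh38.p14), was 20.3, 19.8 and 24.7 CPM in the Jag1KO replicates and 43.2, 43.1 and 56.9 CPM in the Jag1KO + ctrl replicates. Every Jag1KO + ctrl library lies above every Jag1KO library, the libraries of low cell cycle level included. Its log2 fold change was 1.13 ± 0.18, and DESeq2 (adjusted p = 0.00131) and the edgeR fit of all 18 libraries (FDR = 0.0337) called it. SLC14A1, a urea transporter, was 8.61, 8.34 and 8.50 CPM in Jag1KO and 20.9, 15.3 and 17.1 CPM in Jag1KO + ctrl, a log2 fold change of 1.05 ± 0.18. CERCAM, an adhesion molecule, was 19.4, 21.9 and 26.7 CPM in Jag1KO and 51.0, 44.9 and 39.2 CPM in Jag1KO + ctrl, or 0.98 ± 0.18 on the log2 scale. Both were called by DESeq2 (adjusted p = 0.0117 for each).

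CD24, a surface glycoprotein used with CD44 to describe breast cancer stem cell states, was 18.3, 24.3 and 34.1 CPM in Jag1KO and 97.2, 53.7 and 52.9 CPM in Jag1KO + ctrl. The highest library, Jag1KO + ctrl replicate 1, is well above the other two of its group, and the log2 fold change was 1.40 ± 0.31 (DESeq2 adjusted p = 0.0342). ITGA10, a collagen-binding integrin subunit, was 8.94, 11.2 and 13.6 CPM in Jag1KO and 33.3, 21.9 and 20.9 CPM in Jag1KO + ctrl (log2 fold change 1.16 ± 0.25, DESeq2 adjusted p = 0.0342). ADAMTS1, a secreted matrix protease, was 51.1, 41.7 and 41.1 CPM in Jag1KO and 68.7, 73.0 and 67.7 CPM in Jag1KO + ctrl, with a narrow spread within each group. P4HA2, which hydroxylates prolines of collagen and is a target of HIF1, was 43.3, 52.4 and 50.0 CPM in Jag1KO and 90.5, 75.9 and 69.4 CPM in Jag1KO + ctrl. IFI27, an interferon-induced gene, was 14.2, 15.2 and 14.6 CPM in Jag1KO and 23.9, 21.6 and 25.5 CPM in Jag1KO + ctrl. The remaining 2 of the 10 higher genes, C4orf3 and TMEM45A, encode membrane proteins and had log2 fold changes of 0.72 ± 0.14 and 1.15 ± 0.24. DESeq2 called both of them (adjusted p of 0.0297 for C4orf3 and 0.0342 for TMEM45A).

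In the other direction, KCNN3, a calcium-activated potassium channel, was 30.9, 37.0 and 31.8 CPM in Jag1KO and 20.3, 16.4 and 18.2 CPM in Jag1KO + ctrl. Its log2 fold change was -0.88 ± 0.16, and it was the 1 gene that DESeq2 called lower (adjusted p = 0.0160). GJB2, the gap junction protein connexin 26, was 22.1, 27.0 and 17.8 CPM in Jag1KO and 9.59, 8.27 and 14.1 CPM in Jag1KO + ctrl. HIF1A, the oxygen-regulated subunit of HIF1, was 773, 1044 and 953 CPM in Jag1KO and 533, 519.9 and 695 CPM in Jag1KO + ctrl, and its log2 fold change of -0.68 ± 0.19 has the opposite sign to that of most of its glycolytic targets given below. KRT7, a keratin of simple epithelia, was 23.0, 33.4 and 29.4 CPM in Jag1KO and 16.6, 18.6 and 20.5 CPM in Jag1KO + ctrl. The others were AATF and PAK1IP1, which act in ribosome assembly, PNPT1, an RNA-degrading enzyme of mitochondria, GDAP1, a protein of the outer mitochondrial membrane, XAGE1A, a cancer-testis antigen, and SH2D5, an adaptor. Their log2 fold changes were between -0.95 and -0.47. XAGE1A has near-identical copies between which reads can be split, so its value is uncertain. Of the 10 higher and 10 lower genes, 10 and 7 were called without the 2 libraries of low cell cycle level. Since the 20 were chosen on libraries that this setting shares, that count is a description.

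**Figure D3:**
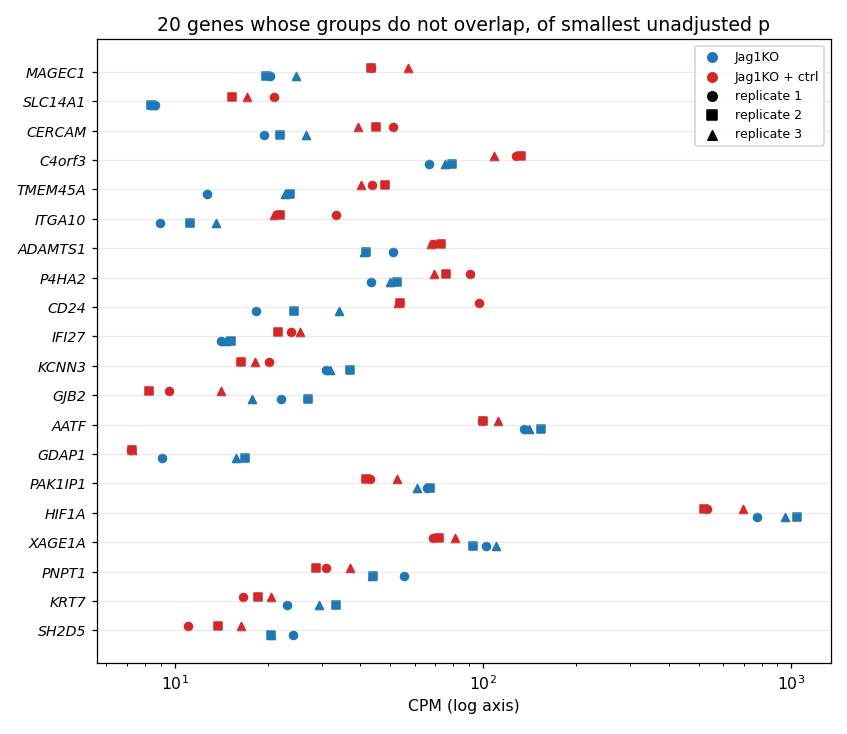
CPM (log axis) of the 10 higher and 10 lower genes of smallest unadjusted p whose groups do not overlap, with a mean of at least 10 CPM; each point is 1 library, colored by group and shaped by replicate number. MAGEC1, at the top, separates at 24.7 CPM (highest Jag1KO) and 43.1 CPM (lowest Jag1KO + ctrl), and the separation is part of how the 20 genes were chosen.

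A further 5 genes were called by DESeq2 and lie below this level or are less regular, so they are given as values chosen after they were seen. DEPP1, a FOXO target, was 0.718, 0.541 and 1.24 CPM in Jag1KO and 25.5, 4.55 and 1.44 CPM in Jag1KO + ctrl, a difference set mostly by replicate 1. NTRK2, a neurotrophin receptor, was 1.11, 1.00 and 1.72 CPM in Jag1KO and 6.12, 3.95 and 3.37 CPM in Jag1KO + ctrl. RASSF4, a Ras-binding protein, was 2.15, 4.63 and 3.73 CPM in Jag1KO and 19.1, 16.8 and 5.84 CPM in Jag1KO + ctrl. In all 3 genes the groups separate while the third Jag1KO + ctrl library is the lowest of its group. MPZL2 and LINC02864 had edgeR log2 fold changes of 2.33 ± 0.57 and 1.20 ± 0.25 (FDR = 0.76).

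Genes of the HIF1 program and glycolysis were mostly higher with the empty vector, but varied with the library. Of 38 tested, 35 had a positive and 3 a negative log2 fold change, with a median of 0.50 against -0.01 for all genes. edgeR called 0 of them over 6 libraries (0% of all genes). At an unadjusted p below 0.05, 16 were higher and 1 lower, against 3.75% and 2.05% of all genes, and 11 separated upward and 2 downward, against 6.04% and 4.04%. ERO1A, an oxidase of the endoplasmic reticulum that is induced by hypoxia, was 195, 278 and 287 CPM in Jag1KO and 568, 474 and 352 CPM in Jag1KO + ctrl. ENO2, the neuronal form of enolase, was 45.6, 84.7 and 85.5 CPM in Jag1KO and 184, 187 and 98.5 CPM in Jag1KO + ctrl. In both genes the groups do not overlap, and the lowest library of each group is the one of low cell cycle level. ENO2 and the following 4 members were picked after their values were seen, to show how far the libraries differ. NDRG1, a stress-responsive gene, was 357, 868 and 839.7 CPM in Jag1KO and 2528, 2462 and 923 CPM in Jag1KO + ctrl, and the groups do not overlap. CA9, a carbonic anhydrase at the cell surface that serves as a hypoxia marker, was 1.11, 25.2 and 28.9 CPM in Jag1KO and 136, 112 and 28 CPM in Jag1KO + ctrl. Jag1KO + ctrl replicate 3 falls within the Jag1KO range, so the groups overlap. PFKFB4, which makes an activator of glycolysis, was 20.8, 30.05 and 23.7 CPM in Jag1KO and 129.6, 104 and 25.2 CPM in Jag1KO + ctrl, and EGLN3, an oxygen sensor, was 3.98, 10.1 and 9.08 CPM and 53.7, 29.6 and 7.76 CPM. Without the 2 libraries of low cell cycle level, 18 of the 38 were called higher (6.62% of all genes) and 2 lower (5.74%), and the median was 0.56. CA9 had a log2 difference of 2.19 there, PFKFB4 2.10 and EGLN3 2.10. The 2 genes called lower were HIF1A and VEGFA, the angiogenic factor, which is also on the ATF4 list and differed by -0.74.

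Of the 38 hypoxia and glycolysis genes, 34 matched a promoter in the RefSeq table (GRCh38.p14). In the 250 bases before the start, 15 of the 34 (44.1%) held ACGTG on either strand, the core of the element that HIF1 binds, against 18.7% of all 27305 promoters and 23.8% of the 10292 promoters of tested genes. The motif was chosen after the values were seen, a match is only these letters, and no binding was measured. The list is made of genes of the HIF1 program and glycolysis, so this share describes the list and not these libraries. The promoters of the 2 listed genes of smallest unadjusted p that hold it are printed 5′ to 3′ on the strand of the gene, with the match in capitals.
ERO1A, chr14:52695559-52695808, minus strand: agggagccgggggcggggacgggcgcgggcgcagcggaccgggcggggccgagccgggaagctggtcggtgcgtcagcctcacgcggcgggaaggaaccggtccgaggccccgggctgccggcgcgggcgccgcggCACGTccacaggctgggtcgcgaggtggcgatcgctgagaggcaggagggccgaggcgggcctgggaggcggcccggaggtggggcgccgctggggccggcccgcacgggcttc
ENO2, chr12:6914330-6914579, plus strand: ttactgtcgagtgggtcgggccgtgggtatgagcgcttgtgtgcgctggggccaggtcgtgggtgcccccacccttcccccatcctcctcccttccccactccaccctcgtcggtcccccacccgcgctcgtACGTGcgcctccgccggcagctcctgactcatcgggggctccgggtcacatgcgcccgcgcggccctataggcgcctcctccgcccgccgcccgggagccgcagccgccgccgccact

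Enzymes of cholesterol and fatty acid synthesis showed the highest median of the lists with 10 or more tested genes. Of 34 tested, 33 had a positive log2 fold change and 1 a negative one, with a median of 0.63. edgeR called 0 over the 6 libraries. At an unadjusted p below 0.05, 9 were higher and 0 lower, against 3.75% and 2.05% of all genes. Only 1 separated upward and 0 downward, against 6.04% and 4.04% of all genes. The gene that separated was INSIG1, which holds back sterol synthesis and is named after its value was seen. HMGCS1, which makes the HMG-CoA of the sterol pathway, was 54.6, 62.3 and 102 CPM in Jag1KO and 215, 284 and 84.4 CPM in Jag1KO + ctrl. SCD, which desaturates fatty acids, was 688, 729.7 and 1000 CPM in Jag1KO and 1853, 1732 and 980.4 CPM in Jag1KO + ctrl. In both genes the first 2 Jag1KO + ctrl libraries are above every Jag1KO library and the third is below Jag1KO replicate 3. Once the 2 libraries of low cell cycle level were left out, 23 of 34 were called higher (6.62% of all genes) and 0 lower by edgeR, with a median of 0.82 and a log2 difference of 1.59 for HMGCS1.

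Targets of ATF4 were lower on average with the empty vector in all 34 tested genes, with a median log2 fold change of -0.60. edgeR called 0 over the 6 libraries. At an unadjusted p below 0.05, 2 were lower and 0 higher, against 2.05% and 3.75% of all genes. Only 1 gene separated downward and 0 upward, against 4.04% and 6.04% of all genes. ASNS, asparagine synthetase, which like DDIT3 and ATF4 was picked after its values were seen, was 1047, 739.7 and 540.4 CPM in Jag1KO and 192, 143 and 904 CPM in Jag1KO + ctrl. TRIB3, a pseudokinase that dampens ATF4, was 193, 289 and 238 CPM in Jag1KO and 91.3, 55.7 and 218 CPM in Jag1KO + ctrl. MTHFD2, of mitochondrial folate metabolism, was 211, 234 and 185 CPM in Jag1KO and 79.6, 65.7 and 194 CPM in Jag1KO + ctrl. The first 2 Jag1KO + ctrl libraries lie below all Jag1KO libraries in the 3 genes, and the third lies within the Jag1KO range. PSPH, the phosphatase that completes serine synthesis, was the gene that separated, at 59.0, 67.3 and 58.4 CPM in Jag1KO and 31.4, 25.5 and 55.5 CPM in Jag1KO + ctrl. In the fit of the other 4 libraries, 30 of the 34 were called lower (5.74% of all genes) and 0 higher, with a median of -1.23. ASNS then differed by -1.95, TRIB3 by -1.85 and DDIT3, a stress-induced transcription factor also known as CHOP, by -1.30 on the log2 scale. ATF4 itself, which is controlled largely at translation, was 484, 516 and 539 CPM in Jag1KO and 431, 435 and 617 CPM in Jag1KO + ctrl, a log2 fold change of -0.07 ± 0.18 over 6 libraries.

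Of the 34 genes, 28 matched a promoter of the same table. TGATGNAA, a form of the element that ATF4 binds with C/EBP partners, was found on either strand in 4 of 28 (14.3%), against 3.19% of all promoters and 1.43% of those of tested genes. This motif too was chosen after the values were seen, and the list is made of ATF4 targets, so the share describes the list. AARS1, the alanyl-tRNA synthetase, and ASNS were the 2 of smallest unadjusted p that hold it, and are printed in the same way.
AARS1, chr16:70289507-70289756, minus strand: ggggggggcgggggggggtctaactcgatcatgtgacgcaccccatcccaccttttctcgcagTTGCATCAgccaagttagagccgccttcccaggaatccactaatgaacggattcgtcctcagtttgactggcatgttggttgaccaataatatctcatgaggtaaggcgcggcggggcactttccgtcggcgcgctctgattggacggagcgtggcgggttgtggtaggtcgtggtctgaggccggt
ASNS, chr7:97872409-97872658, minus strand: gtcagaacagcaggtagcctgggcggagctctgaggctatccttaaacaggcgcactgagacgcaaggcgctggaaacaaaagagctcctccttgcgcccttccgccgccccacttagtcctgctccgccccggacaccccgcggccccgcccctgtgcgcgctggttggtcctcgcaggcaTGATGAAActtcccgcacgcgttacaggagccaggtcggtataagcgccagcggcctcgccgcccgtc

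Chaperones of the heat shock response had a median log2 fold change of 0.30, with 14 of 16 tested genes positive. edgeR called 0 of them over 6 libraries. At an unadjusted p below 0.05, 3 were higher and 0 lower, against 3.75% and 2.05% of all genes. HSP90AA1, the inducible HSP90, was 924, 878 and 961 CPM in Jag1KO and 1322, 1341 and 1070 CPM in Jag1KO + ctrl, without overlap. HSPA1A, the inducible HSP70, and HSPA6 were picked after their values were seen. HSPA1A was 419.9, 44.0 and 59.8 CPM in Jag1KO and 422, 147 and 708 CPM in Jag1KO + ctrl. Here the libraries of low cell cycle level are the highest of their groups, the reverse of the sterol genes, and HSPA1A shares reads with the near-identical HSPA1B. HSPA6, a strictly inducible HSP70, was 2.67, 0.0772 and 0.0955 CPM in Jag1KO and 5.10, 1.26 and 27.3 CPM in Jag1KO + ctrl. With the cell cycle level as a covariate in the edgeR fit, an alternative added after the data had been seen, HSPA6 was called with a log2 difference of 4.45 ± 0.44 (FDR = 0.0412), together with PPFIA4 (1.71 ± 0.18) and ENO2 (0.93 ± 0.10). Without the 2 libraries of low cell cycle level, 5 of the 16 were called higher (6.62% of all genes) and 0 lower by edgeR.

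**Figure D4:**
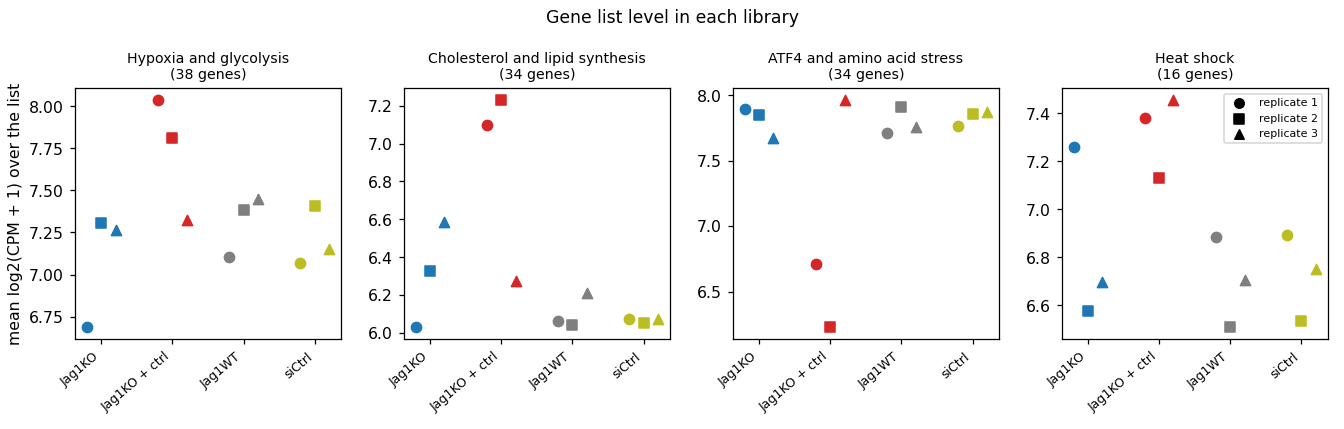
Mean log2(CPM + 1) over 4 gene lists, 1 panel a list, in each library of 4 groups, with the replicate number as the shape. In the first 3 lists Jag1KO + ctrl replicates 1 and 2 lie outside the range of the Jag1KO, Jag1WT and siCtrl libraries (6.71 and 6.23 for ATF4 targets, against 7.97 in replicate 3), and in the heat shock list Jag1KO replicate 1 (7.26) lies among the Jag1KO + ctrl libraries (7.13 to 7.46).

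Cancer-testis antigens, genes that are normally silent outside the germline and of which all 15 tested are on the X chromosome, were apart between the groups in all 6 libraries as a list mean. Of the 15, 9 separated upward and 3 downward between the groups, against 6.04% and 4.04% of all genes. At an unadjusted p below 0.05, 8 were higher and 3 lower, against 3.75% and 2.05% of all genes. edgeR called 0 of them over 6 libraries. PAGE5 was 12.1, 11.7 and 14.0 CPM in Jag1KO and 20.4, 21.9 and 18.9 CPM in Jag1KO + ctrl. MAGEC2, a related antigen, and XAGE1B were picked after their values were seen. MAGEC2 was 30.9, 34.1 and 33.1 CPM in Jag1KO and 41.0, 50.6 and 66.5 CPM in Jag1KO + ctrl. In the other direction, XAGE1B was 56.9, 56.8 and 70.0 CPM in Jag1KO and 45.3, 43.2 and 49.3 CPM in Jag1KO + ctrl. SPANX and XAGE genes come in near-identical copies, and their single values are uncertain. The mean log2(CPM + 1) of the list was 4.49 to 4.68 in the Jag1KO libraries and 4.85 to 4.93 in Jag1KO + ctrl, while the 3 Jag1WT libraries had 3.74 to 3.98 and siCtrl 3.89 to 4.06. With both libraries of low cell cycle level left out, 3 of the 15 were called higher (6.62% of all genes) and 0 lower by edgeR.

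Guidance cues, the semaphorins, ephrins, slits and their receptors that steer cell movement, had 9 of 43 tested genes that separated upward and 0 downward, against 6.04% and 4.04% of all genes, with a median of 0.20. edgeR called 0, and 10 were higher and 0 lower at an unadjusted p below 0.05, against 3.75% and 2.05%. SLIT2, a ligand of ROBO receptors, was 68.5, 62.4 and 81.7 CPM in Jag1KO and 110.0, 110.0 and 83.9 CPM in Jag1KO + ctrl. PLXND1, a semaphorin receptor, was 30.5, 25.6 and 34.5 CPM in Jag1KO and 53.5, 46.7 and 39.9 CPM in Jag1KO + ctrl. EFNA3, an ephrin ligand that is also a hypoxia-responsive gene, was 1.63, 0.463 and 1.05 CPM in Jag1KO and 4.20, 4.43 and 2.53 CPM in Jag1KO + ctrl. Without the 2 libraries of low cell cycle level, 9 of 43 were called higher (6.62% of all genes) and 3 lower (5.74%), the latter including NRP1, picked after its value was seen, the co-receptor of semaphorins and VEGF, at 1213, 1247 and 1137 CPM in Jag1KO and 683, 641 and 1375 CPM in Jag1KO + ctrl.

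Genes that respond to foreign DNA and genes of the lysosome, where aminoglycosides collect, were examined because of the plasmid and the G418. Of 40 interferon-stimulated genes, edgeR called 0 over 6 libraries, and the median was 0.21. At an unadjusted p below 0.05, 3 were higher and 2 lower, against 3.75% and 2.05% of all genes, and 5 separated upward and 1 downward, against 6.04% and 4.04%. Without the 2 libraries of low cell cycle level, 5 were called higher (6.62% of all genes) and 2 lower (5.74%). TRIM22, an antiviral ubiquitin ligase, was 2.41, 2.63 and 3.15 CPM in Jag1KO and 7.37, 6.89 and 4.33 CPM in Jag1KO + ctrl (log2 fold change 1.17 ± 0.29). IFI16, a sensor of DNA, was 248, 389 and 340.3 CPM in Jag1KO and 208, 161 and 286 CPM in Jag1KO + ctrl, which overlap. ISG15, a ubiquitin-like modifier with a strong interferon response that was picked after its value was seen, was 15.9, 10.9 and 10.5 CPM in Jag1KO and 10.3, 12 and 11.6 CPM in Jag1KO + ctrl. The 41 lysosomal genes had a median of 0.02, with 0 called by edgeR and 0 at an unadjusted p below 0.05 in either direction, while 5 separated upward and 0 downward (6.04% and 4.04% of all genes). The 82 ribosomal protein genes had a median of -0.05. Cytokines and NF-kB targets had a median of -0.30 over 26 genes, 22 of them negative, with 7 called lower (5.74% of all genes) and 0 higher by edgeR without the 2 libraries of low cell cycle level. IL1A, an alarm cytokine picked in the same way, was 371, 615 and 422 CPM in Jag1KO and 126, 48.3 and 472 CPM in Jag1KO + ctrl.

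S phase genes had a median log2 fold change of 0.19 and G2/M genes one of 0.29 over the 6 libraries, with 0 of 43 and 0 of 54 called by edgeR and 0 of either at an unadjusted p below 0.05. In siCtrl against Jag1WT the same lists had medians of 0.19 and 0.25. MCM5, a subunit of the replicative helicase, was 19.2, 20.6 and 34.0 CPM in Jag1KO and 47.5, 64.5 and 18.9 CPM in Jag1KO + ctrl. The 2 low libraries are the lowest in each group, and leaving out libraries by this level also sets what is left of these lists, so that no test is read from them there. The collagens (17 tested, median 0.23), the integrins (15 tested, median 0.24) and the luminal markers (11 tested, median 0.38) were higher on average, and edgeR called 0 in each. ITGA1, which pairs with integrin beta 1 to bind collagen, was 98.1, 111 and 128 CPM in Jag1KO and 188, 133 and 149.9 CPM in Jag1KO + ctrl, without overlap. KRT19, a luminal keratin, was 144, 172 and 225 CPM in Jag1KO and 409, 457 and 189 CPM in Jag1KO + ctrl, with the third Jag1KO + ctrl library within the Jag1KO range. EGFR, of which this line has much, was 483, 495 and 486 CPM in Jag1KO and 301, 285 and 459 CPM in Jag1KO + ctrl, all 3 below the Jag1KO libraries (log2 fold change -0.50 ± 0.20, edgeR FDR = 0.76). Its relative ERBB3 went the other way without overlap, at 1.30, 1.31 and 0.764 CPM against 4.68, 5.03 and 1.56 CPM. Of 11 tested EGF receptor family and ligand genes, 5 were higher and 6 lower. In that list 1 separated upward and 1 downward, against 6.04% and 4.04% of all genes. Some lists with 10 or more tested genes have no median given above. Theirs lay between -0.18 for quiescence genes and 0.31 for cancer-testis antigens.

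**Figure D5:**
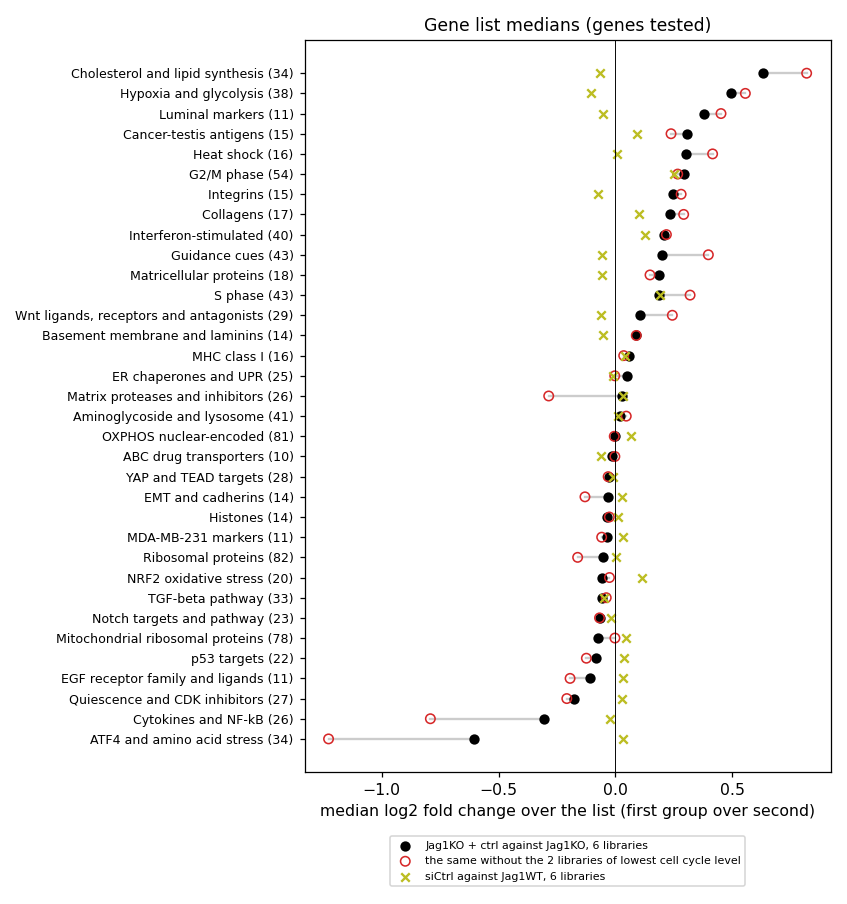
Median log2 fold change of each list with 10 or more tested genes (number in brackets), for Jag1KO + ctrl against Jag1KO over 6 libraries (black), for the same without Jag1KO replicate 1 and Jag1KO + ctrl replicate 3 (open red), and for siCtrl against Jag1WT (crosses). Cholesterol synthesis (0.63) and hypoxia genes (0.50) lie to the right and ATF4 targets (-0.60) to the left, and all 3 move outward without the 2 libraries, while the crosses lie within 0.25 of 0.

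Without the 2 libraries of low cell cycle level, the genes called with the greatest fold at a mean of at least 10 CPM had values of Jag1KO + ctrl replicate 3 far from the other two libraries of its group. These genes were chosen by their value in this fit, so the values are a description. RAB3B, a GTPase of vesicle release, was 1.5, 8.42 and 14.9 CPM in Jag1KO and 58.8, 61.2 and 6.32 CPM in Jag1KO + ctrl. SERPINB2, a plasminogen activator inhibitor, was 2951, 1287 and 1041 CPM in Jag1KO and 285, 259 and 2093 CPM in Jag1KO + ctrl. LCN2, a lipocalin that binds bacterial iron carriers, was 135, 117 and 109 CPM in Jag1KO and 21.6, 12.3 and 125 CPM in Jag1KO + ctrl. In SERPINB2 and LCN2 replicate 3 of Jag1KO + ctrl is far above the other two of its group and within the Jag1KO range. In MMP10, a matrix protease, it was 113.2 CPM and lay above the Jag1KO libraries (63.2, 22.8 and 25.2 CPM), and the log2 fold change over 6 libraries was 0.13 against -2.27 without both. Of the 861 genes called higher, 859 had the same sign over all 6 libraries and 213 (24.7%) separated upward there, against 6.04% of all genes. Of the 747 called lower, 744 had the same sign and 87 (11.6%) separated downward, against 4.04% of all genes. The 2 settings share 4 libraries, which by itself raises the shares of the called genes. These shares describe how much of the difference the other 2 libraries carry. Of the 131 genes called higher without Jag1KO + ctrl replicate 3 alone, 130 were also called without both libraries, as were 204 of the 206 called lower.

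The control siRNA gave a background from libraries that the empty vector comparison does not use. In siCtrl against Jag1WT edgeR called 0 of 12847 genes (0%), with 180 at an unadjusted p below 0.05. The labels do not say whether the replicate number pairs these samples. A fit that blocks on this number called 1 gene, MYBL2, a transcription factor of proliferating cells, at 0.85 ± 0.17 (log2, FDR = 0.0384). The blocked fit had 1254 genes at an unadjusted p below 0.05, and 13 at an FDR below 0.05 without the fold threshold. In the fit without the block, the ATF4, hypoxia and cholesterol lists had medians of 0.03, -0.11 and -0.07. Tested directly, as the interaction of both comparisons over 12 libraries, the effect of the empty vector differed from that of the control siRNA for 0 of 12883 genes (0%) by edgeR, with 1042 at an unadjusted p below 0.05. Without Jag1KO + ctrl replicate 3, 352 genes were called with a higher and 427 with a lower effect of the empty vector, and without both libraries of low cell cycle level 431 and 492. DESeq2 was not run on these 2 comparisons. The empty vector was given to knockout cells grown under G418, and the control siRNA to parental cells. Genotype, kind of transfection and selection thus differ together in the interaction and cannot be told apart.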

How the data were processed

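Messenger RNA was measured in 18 libraries made with a stranded mRNA kit, 3 for each of 6 conditions, and the 3 Jag1KO + ctrl and 3 Jag1KO libraries were compared. The labels call the samples biological replicates, and p-values measure the spread between these samples, not between repeated transfections. The authors aligned reads to hg38 and counted them per gene. The counts were deposited raw, as whole reads, for 21411 genes. The submitters' processing notes name featureCounts, edgeR 3.28.0, R 3.6.1 and MultiQC 1.5. The deposited CPM are a signal that the authors scaled with TMM factors, so that columns do not share a fixed sum, and served as levels here. Deposited RPKM were not used. A symbol was missing for 292 genes, whose share of the counts stayed at or below 0.0442% in the 6 libraries.

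Genes that passed 1 CPM in 3 or more of the 6 libraries were tested on the counts with the quasi-likelihood test of edgeR 4.0.16 (R 4.3.3, TMM, robust), and called where the FDR (Benjamini-Hochberg) was below 0.05 with more than a 1.5-fold difference. ROTS, which the authors ran on log2(CPM + 1), was not used here. The interaction with siCtrl against Jag1WT was fitted to 12 libraries, with 1 CPM passed in 6 or more. Fold changes are Jag1KO + ctrl over Jag1KO, and errors are SE. The alternatives were DESeq2 1.42.0, limma 3.58.1 with a trend on log2(CPM + 1) (pseudocount 1), limma voom with quality weights, RLE factors, no filter, all 18 libraries, the replicate number as a block, leaving out each library, and, added after the data had been seen, leaving out the library of lowest cell cycle level in each group and the cell cycle level as a covariate. Scripts were tested on simulated data in which no library stood apart, so the power in these libraries was not tested.

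Correlations of the deviations of same-numbered samples from their group means were 0.59, 0.71 and 0.21 in siCtrl and Jag1WT. They were -0.36, 0.28 and -0.61 in Jag1KO + ctrl and Jag1KO. The labels do not say which samples belong together across groups, and pairing was not tested. The members and lists were chosen with earlier results of these data known. Lists are described by counts and medians without a set test. Named are all called genes, or, with fewer than 20 called, the 10 genes in each direction of smallest unadjusted p whose groups do not overlap at a mean of at least 10 CPM, the Notch ligands and receptors, and up to 3 members of smallest p a list. All other names (among them cell markers, genes behind a small count, a motif or a call of an alternative) were chosen after their values were seen, and of the genes so named only those a paragraph turns on are given. Some list members so named are not reported here. Promoters are from RefSeq (GRCh38.p14), cut to the 250 bases before the start.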

Additional observations from a re-analysis of the deposited data

How the results depend on the processing

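Over the 6 libraries the counts of genes called, 0 higher and 0 lower, were also 0 and 0 with limma with a trend, RLE factors, no filter and the replicate block, whose smallest FDR was 0.94. They were 12 and 1 with DESeq2, 566 and 563 with voom weights, 1 higher with all 18 libraries, 3 higher with the cell cycle level as a covariate, and 861 and 747 without both libraries of low cell cycle level. Leaving out single libraries gave 0 to 131 higher and 0 to 206 lower, all from the fit without Jag1KO + ctrl replicate 3. For the interaction these ranges were 0 to 352 and 0 to 427, and 431 and 492 without both; for siCtrl against Jag1WT the block gave 1 higher. The block changed no other call. JAG1 differed by -0.54 without both. Without both libraries, the list medians that moved beyond the spread within groups were -0.33 (Notch ligands and receptors), -0.16 (ribosomal proteins), -0.0019 (mitochondrial ribosomal proteins), 0.33 (DNA sensing), -0.29 (matrix proteases), 0.40 (guidance cues) and 0.24 (Wnt). With voom weights they were -0.34 (Notch), 0.30 (DNA sensing) and 0.32 (guidance cues), and with the covariate -0.073 (quiescence). Leaving out single libraries gave medians of -0.34 to -0.056 (Notch), -0.037 to 0.12 (lysosome), -0.15 to -0.019 (ribosomal proteins), -0.036 to 0.12 (ABC transporters), 0.041 to 0.28 (DNA sensing), -0.034 to 0.083 (MHC class I), -1.25 to -0.37 (ATF4), -0.10 to 0.033 (NRF2), -0.21 to -0.14 (p53), -0.35 to 0.017 (quiescence), -0.11 to 0.035 (YAP), 0.13 to 0.31 (guidance), 0.26 to 0.51 (luminal) and 0.017 to 0.26 (fibroblast). Of 133 named genes tested, 4 changed sign under an alternative: COL1A1 (-0.03; 0.0046 with limma, -0.20 to 0.26 leaving out single libraries), ROBO4 (0.13; -0.14 with voom weights, -0.16 without both, -0.15 to 0.31), CSF1R (0.42; -0.016 with the covariate, -0.11 to 0.92) and JAG2 (-0.18; -0.65 to 0.036). The cause of these changes was not tested. With 3 libraries a group, and 1 of them apart in each, differences smaller than that spread were not detectable, and p-values without both libraries come from 2 against 2 libraries chosen after the data had been seen.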

Other observations

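Among the libraries outside the comparison, siJag1 replicate 2 (parental cells with siRNAs against JAG1) had a cell cycle level of 6.07, against 4.32 and 4.41 in the other siJag1 libraries. Its ATF4 list level was 7.01, against 7.73 and 7.93, and its cholesterol list level 6.71, against 5.97 and 6.04. Its hypoxia list level was 7.25, against 6.93 and 6.89. Jag1KO + ctrl replicates 1 and 2, with cell cycle levels of 5.72 and 6.09, had ATF4 list levels of 6.71 and 6.23 and cholesterol list levels of 7.10 and 7.23. Jag1KO replicates 2 and 3, with cell cycle levels of 5.55 and 5.67, had ATF4 list levels of 7.85 and 7.67, close to the 7.90 of Jag1KO replicate 1. These values were picked after they were seen and no test was run on them.

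The 3 Jag1KO + rescue libraries, from knockout cells with a plasmid that carries JAG1 and under the same selection, had a cancer-testis list level of 5.18 to 5.37. That is above the 4.85 to 4.93 of Jag1KO + ctrl, the 4.49 to 4.68 of Jag1KO and the 3.74 to 3.98 of Jag1WT. The heat shock list level was 7.20 to 7.99 in the rescue, 7.13 to 7.46 in Jag1KO + ctrl and 6.58 to 7.26 in Jag1KO, which overlap. What plasmid, selection and clones contribute to these levels was not tested.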
